A study of Mus musculus with 3 samples.

Results

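The type I interferon-stimulated gene module is a list of 48 genes that cells switch on after contact with type I interferon. Its members were chosen by name, and 47 of the 48 were present in all 3 expression matrices of the study. Mx2 was not among the measured genes. The matrices held 17129 genes in the naive brain, 16619 in blood and 18935 in the brain with metastases, and 19039 in at least 1 of them.

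Type I interferons bind a receptor made of Ifnar1 and Ifnar2, whose signal acts through interferon-stimulated response elements in promoters. It raises a shared set of antiviral genes. In the brain, microglia, border macrophages and infiltrating monocytes are known to carry such a response in infection, injury and tumours.

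The study used CITE-seq, which reads mRNA and antibody tags of the same single cell. Every mouse was a 2 to 3 month old C57Bl/6 female carrying Cx3cr1CreERT, a tamoxifen-inducible recombinase driven by the promoter of Cx3cr1, which microglia and monocytes both use. The depleted arm (Cx3cr1CreERT-ROSA-iDTR) also carried an inducible diphtheria toxin receptor. Tamoxifen, a pause of 1 month and diphtheria toxin were given to both arms. Naive brains came from mice without metastases, and the brain with metastases from mice about 2 weeks after E0771 mammary tumour cells were injected into the carotid artery. The authors' naming of the blood data places it in mice with metastases too. Each of the 8 hashed samples was 1 brain hemisphere or peripheral blood. They were stained with 35 antibodies, tagged with their own hashing antibody and pooled into 1 library. Immune cells of the brain were collected by Percoll centrifugation, which leaves remnant microglia in the depleted samples according to the series description, and red cells of the blood were lysed. For naive brain and blood, the authors' annotation gave each cell's cluster, surface gate and arm. The cells of the brain with metastases were not assigned to an arm here and were described as 1 pooled sample. Each arm of a tissue is 1 hashed sample, which gives no measure of the spread between mice, so every difference between arms is a description with no test.

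The naive brain held 785 cells labelled control and 1868 labelled depleted, with median raw counts of 8621 and 10120 UMIs per cell. Blood held 1371 and 1553 cells, with medians of 4571 and 5885. Cx3cr1 itself was higher in cells labelled depleted, by an amount that differed between clusters. Its level, as corrected UMIs per 10000 of a cluster and arm (CP10k), was 1.72 in microglia labelled control and 10.0 in microglia labelled depleted. It was 0.286 and 3.64 in blood nonclassical monocytes, and 5.03 and 5.86 in a microglia-like cluster of the blood. The microglial cluster held 134 cells labelled control and 686 labelled depleted. The arms are therefore called the sample labelled control and the sample labelled depleted, and control and depleted always mean these labels. If the labels were exchanged, every difference between arms given here would change sign, and whether they are was not tested. Of the cell barcodes, 339 occurred in both naive brain and blood, 518 in naive brain and the brain with metastases, 578 in blood and the brain with metastases, and 84 in all 3. Such cells were 29.1% of all naive brain cells, 28.5% in blood and 17.1% in the third matrix. The arm comparisons of clusters and gates are therefore also given without them.

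Promoter windows show what many members share beside their name. RefSeq windows (GRCm38.p6) from 250 bases before to 50 after the transcript start were found for 38 of the 48 members. The 10-base pattern of GAAA, any 2 letters and GAAA again, or its reverse complement (TTTC, any 2 letters and TTTC), is the core of an interferon-stimulated response element and occurred in the windows of 20 members, or 52.6%. The same letters occurred in 1079 of all 27025 symbols with a window, or 3.99%. In 8 members the window held 2 or more matches. Windows with a match before the start are shown here for 11 members, as 60 bases with the matching letters in capitals, to show how the matches are arranged in each family. The 11 are a choice among the members with such a match. Arm ratios of members with and without the letters are set side by side further on. Isg15 lies at chr4:156200856-156200915, minus strand. Ifit1 lies at chr19:34640769-34640828, plus strand, Ifit3 at chr19:34583365-34583424, plus strand and Ifit3b at chr19:34607761-34607820, plus strand. Rsad2 lies at chr12:26456538-26456597, minus strand, Oas1a at chr5:120907526-120907585, minus strand and Oas3 at chr5:120777700-120777759, minus strand. Slfn5 lies at chr11:82951922-82951981, plus strand, Bst2 at chr8:71537565-71537624, minus strand, Ifi206 at chr1:173491324-173491383, minus strand and Ifi211 at chr1:173913049-173913108, minus strand.
Isg15: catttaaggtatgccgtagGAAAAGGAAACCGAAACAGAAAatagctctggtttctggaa
Ifit1: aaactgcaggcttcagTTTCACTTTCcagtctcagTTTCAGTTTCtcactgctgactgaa
Ifit3: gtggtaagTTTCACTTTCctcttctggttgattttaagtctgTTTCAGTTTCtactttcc
Ifit3b: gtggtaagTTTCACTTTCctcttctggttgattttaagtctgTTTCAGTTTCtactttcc
Rsad2: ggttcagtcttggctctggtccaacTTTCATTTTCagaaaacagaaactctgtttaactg
Oas1a: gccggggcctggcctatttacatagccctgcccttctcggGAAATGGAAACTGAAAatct
Oas3: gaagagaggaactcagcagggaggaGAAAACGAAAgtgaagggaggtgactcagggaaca
Slfn5: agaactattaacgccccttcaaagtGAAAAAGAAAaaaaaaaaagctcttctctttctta
Bst2: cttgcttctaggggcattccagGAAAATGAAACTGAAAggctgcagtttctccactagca
Ifi206: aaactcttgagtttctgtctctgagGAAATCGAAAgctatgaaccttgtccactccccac
Ifi211: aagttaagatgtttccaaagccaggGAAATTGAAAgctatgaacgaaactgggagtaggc

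The Isg15 window held 3 overlapping matches in 1 run, and the 60 bases shown for Ifit3 and Ifit3b were identical. A 3' read of 1 of these near-identical copies can be counted for the other, so Ifit3 and Ifit3b, Oas1a and Oas1g, and members of the p200 and Schlafen families are uncertain as single genes. Several families sit side by side in the genome. The 4 IFIT genes lie at chr19:34550550-34650009, the 7 p200 genes (DNA-binding proteins such as Ifi204) at chr1:173468485-174031755, and the 4 Schlafen genes at chr11:82951349-83122670. The letters were found in 3 of 4 IFIT windows, 5 of 6 p200 windows, 3 of 5 OAS windows and 2 of 4 Schlafen windows. They were not found in the windows of Oasl2, Slfn1, Slfn2, Samhd1, Xaf1, Ifit2 or Lgals3bp. A match is a stretch of letters, not a measured binding site.

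**Figure D1:**
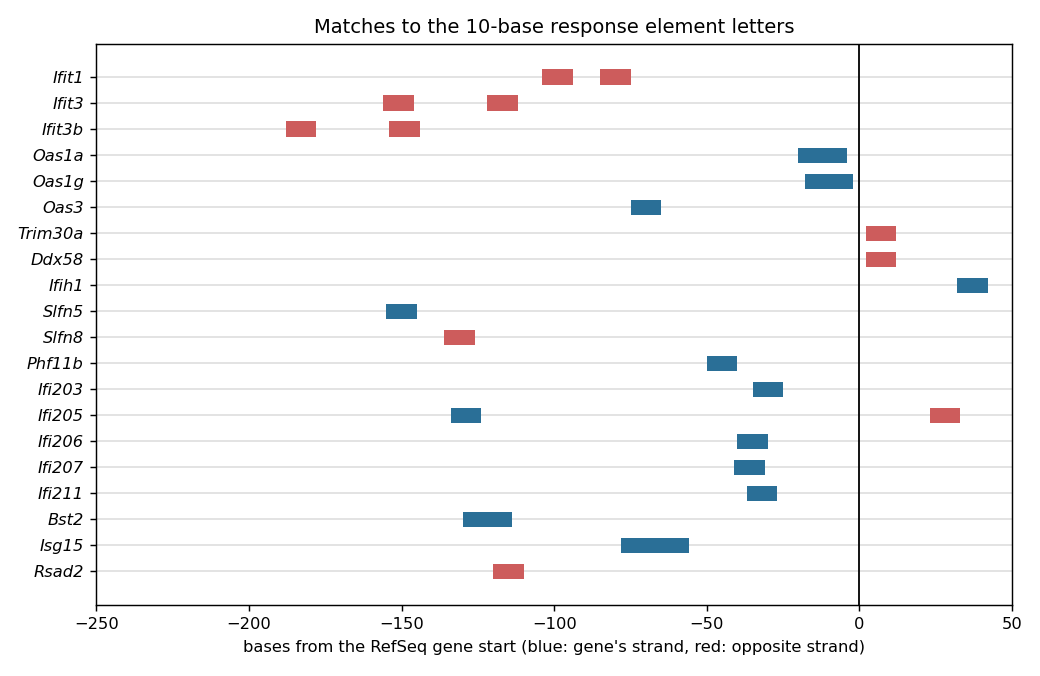
Position of each match to GAAA, any 2 letters and GAAA, on either strand, in bases from the transcript start, for the 20 members with a match among 38 members with a promoter window. The 3 matches of Isg15 lie next to each other within the last 100 bases before the start.

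Across the cell clusters of the naive brain, the module was highest in monocytes and monocyte-derived cells. These levels count 3' tags and are not divided by transcript length, and both arms are pooled. The summed level of the 47 members was 90.8 CP10k in that cluster. It was 40.3 in endothelial cells, 38.8 in T cells, 38.3 in microglia, 36.2 in a Krt8+ cluster, 34.9 in neutrophils, 32.7 in NK cells, 25.0 in vascular cells and 21.1 in nonclassical monocytes. The monocyte cluster had the highest level of 32 of 47 members, and of 24 when shared barcodes were left out. The clusters were made from these genes among others, so the order is a description.

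Isg15, a ubiquitin-like protein that is attached to other proteins or secreted, stood at 8.36 CP10k in the monocyte cluster and 3.94 in the next, the Krt8+ cluster. Zbp1, a sensor of Z-form nucleic acid that can start necroptosis, stood at 2.66 against 1.16 in T cells. Ifi204 stood at 4.20 against 1.69 in microglia, and Ifi211 at 2.01 against 0.245 in microglia. Other members peaked elsewhere. Endothelial cells had the highest Rsad2 (viperin, which makes a nucleotide that ends viral RNA chains), with 6.94 against 3.67 in monocytes, and the highest Slfn5, with 6.98 against 3.44. Bst2 (tetherin, which holds budding virus at the membrane) was highest in the Krt8+ cluster, at 16.9 against 7.70 in monocytes. Lgals3bp, a secreted glycoprotein, was highest in microglia, at 4.18 against 2.32 in monocytes. Oasl2 was 1.29 in neutrophils and 1.25 in monocytes, close enough that no order is read from them.

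In blood the highest summed level, 73.0 CP10k, was in a cluster with microglial markers, of whose cells 82.7% had a barcode that also occurs in another matrix. It was followed by classical monocytes at 56.0, neutrophils at 52.4, T cells at 44.5, a Krt8+ cluster at 36.5, nonclassical monocytes at 29.7 and B cells at 25.5. These values pool arms that differ. In the control arm alone the microglia-like cluster and classical monocytes stood at 72.8 and 73.0, and in the depleted arm at 73.2 and 41.8, so the lead was present in the depleted arm alone. The microglia-like cluster was highest for 25 of 47 members, and for 28 without shared barcodes, among them Isg15 (6.63), Ifit3 (2.44) and Rsad2 (2.73). Neutrophils were highest for 9, among them Oasl2 (3.53 CP10k; an OAS-like enzyme), Rtp4 (2.09; a Golgi chaperone for receptors), Slfn1 (7.02), Slfn2 (12.8) and Samhd1 (8.30; an enzyme that removes the nucleotides viruses need). Classical monocytes were highest for Slfn5, at 4.26. Nonclassical monocytes were highest for 1 member, the ubiquitin ligase Dtx3l, and B cells for none of the 47.

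In 6 of the 7 compared blood clusters, more of the measured members were lower than higher in the sample labelled depleted. The medians furthest below 0 were those of classical monocytes, nonclassical monocytes and neutrophils, and these 3 are described first. Members under 0.5 CP10k in both arms were left out as not measured, and a log2 ratio is depleted over control with 0.1 CP10k added to both. A member that passed in the control arm alone had to be lower, so each count stands beside the same count over all genes measured in that cluster by the same rule. All clusters of a tissue share the same pair of samples, so their values are set side by side and are not independent of each other.

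In blood neutrophils (537 cells labelled control, 429 labelled depleted), 21 of 22 measured members were lower in the sample labelled depleted, beside 44.3% of all 2316 genes measured there. Of the 22, 13 passed in both arms and 9 in the control arm alone. Past 2 fold lower were 8 members, beside 0.561% of all genes. The median log2 ratio was -0.73, and 0.03 over all genes. The summed level of the 47 members was 60.0 CP10k in control and 42.7 in cells labelled depleted, and the median cell held 51.2 and 37.5. Without shared barcodes (7.66% of the cluster), 20 of 21 measured members were lower and the median was -0.60.

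The lowest ratios were those of Slfn5, Ifit3, Rtp4 and Ifit3b. Slfn5, a Schlafen family helicase, was 1.76 CP10k in control and 0.456 in neutrophils labelled depleted, a log2 ratio of -1.74. Ifit3, which with other IFIT proteins binds foreign RNA, was 0.699 and 0.161 (-1.62), and its near copy Ifit3b was 0.650 and 0.171 (-1.47). Rtp4 was 2.98 and 0.975 (-1.52). For these members the level in cells labelled depleted was well under the level in control cells.

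The OAS family includes enzymes that make the signal that activates RNase L, though not every member does so. In it, Oasl1 was 0.670 and 0.239 (-1.19), Oasl2 4.57 and 2.21 (-1.02) and Oas3 1.68 and 0.980 (-0.72). Ifit1 was 0.810 and 0.353 (-1.01), Rsad2 1.23 and 0.700 (-0.73) and Isg15 1.63 and 1.05 (-0.59). Zbp1 was 0.547 and 0.244 (-0.91). Slfn2, Samhd1 and Bst2 differed least. Slfn2, which keeps resting lymphocytes and myeloid cells quiescent, was 13.2 and 12.3 (-0.10), Samhd1 8.48 and 8.07 (-0.07) and Bst2 1.09 and 1.15 (0.07). Ifit2, Usp18 and Xaf1 stayed under 0.5 CP10k in both arms, at 0.111 and 0.0571, 0.218 and 0.0986, and 0.193 and 0.119.

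In CP10k, the members with the greatest part in the summed difference of -17.4 in neutrophils were Slfn1 (8.31 and 5.39, a difference of -2.92), Oasl2 (-2.36), Rtp4 (-2.01) and Slfn5 (-1.31). Together these 4 made up 49.5% of it, so the other members together made up as much. Without shared barcodes the log2 ratio of Slfn5 was -1.86, of Rtp4 -1.52, of Ifit3 -1.48, of Oasl2 -0.98 and of Isg15 -0.60. Neutrophil markers summed to 2178 and 2102 CP10k in the 2 arms, with 3 of 6 lower.

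In blood classical monocytes (160 and 195 cells), 33 of 33 measured members were lower in the sample labelled depleted, beside 59.1% of all 3330 measured genes. Of the 33, 17 passed in both arms and 16 in the control arm alone. Past 2 fold lower were 13 members, beside 0.691% of all genes. The median log2 ratio was -0.93, and -0.06 over all genes. The summed level was 73.0 CP10k in control and 41.8 in cells labelled depleted, and the median cell held 63.1 and 33.7. Without shared barcodes (7.89% of the cluster), 35 of 35 measured members were lower and the median was -0.91.

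Ifi206 of the p200 family had the lowest ratio, with 0.615 CP10k in control and 0.105 in monocytes labelled depleted (-1.80), but rested on 58 and 12 corrected UMIs. Isg15 was 1.53 and 0.456 (-1.55), Oasl2 1.50 and 0.473 (-1.49), Oas3 1.05 and 0.315 (-1.47), Slfn1 3.75 and 1.38 (-1.38) and Rtp4 1.41 and 0.482 (-1.38). Without shared barcodes, Isg15 stood at -1.61, Oasl2 at -1.51, Rtp4 at -1.42 and Ifi206 at -1.91. Leaving out the shared cells thus moved these ratios little.

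Xaf1, a protein that promotes apoptosis, was 1.22 and 0.473 (-1.20), Ifit3 0.795 and 0.342 (-1.02), Zbp1 2.08 and 1.03 (-0.94) and Bst2 2.98 and 1.69 (-0.78). Smaller ratios were those of Slfn2 (8.13 and 6.09, -0.41), Mx1, which RefSeq lists as a transcribed pseudogene (0.604 and 0.456, -0.34), Ifi203 (2.84 and 2.30, -0.29) and the mono-ADP-ribosyltransferase Parp14 (1.45 and 1.17, -0.29). Ifit1, Usp18 and Rsad2 did not reach 0.5 CP10k in either arm. They were 0.498 and 0.394 for Ifit1, 0.424 and 0.210 for Usp18, which removes ISG15 and dampens the receptor, and 0.286 and 0.289 for Rsad2. Rsad2 thus stood at the same low level in both arms of classical monocytes. Of the summed difference of -31.2 CP10k, 32.1% lay in Slfn5 (6.13 and 2.72, -3.41), Slfn1 (-2.37), Samhd1 (9.16 and 6.96, -2.20) and Slfn2 (-2.04), and the rest was spread over other members.

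In blood nonclassical monocytes (95 and 386 cells), 20 of 21 measured members were lower in the sample labelled depleted, beside 42.8% of all 3436 measured genes. Of the 21, 9 passed in both arms and 12 in the control arm alone. Past 2 fold lower were 9 members, beside 1.54% of all genes. The median log2 ratio was -0.83, and 0.06 over all genes. The summed level was 44.4 and 26.0 CP10k, and the median cell held 38.0 and 23.1. Without shared barcodes (12.1% of the cluster), 22 of 24 measured members were lower and the median was -0.78.

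Oasl2 had the lowest ratio, with 1.29 CP10k in control and 0.218 in cells labelled depleted (-2.13). Slfn5 was 2.00 and 0.410 (-2.04), Oas3 0.716 and 0.135 (-1.80), Rtp4 1.06 and 0.239 (-1.78) and Slfn1 1.17 and 0.301 (-1.66). In the control arm these members rested on 35 to 98 corrected UMIs. Without shared barcodes Oasl2 stood at -2.16, Slfn5 at -2.26, Oas3 at -2.04, Slfn1 at -1.95 and Rtp4 at -1.47. Isg15 was 1.02 and 0.389 (-1.20), but -0.53 without shared barcodes (0.589 and 0.377), so over 2 fold only when the shared cells were kept. Zbp1 was 1.64 and 0.893 (-0.81), Bst2 1.88 and 1.35 (-0.45), Slfn2 6.38 and 4.89 (-0.38) and Parp14 1.17 and 0.919 (-0.31). Dtx3l was the 1 measured member that was higher, at 0.593 and 0.701 (0.21). Samhd1 (9.53 and 7.28, -2.25), Slfn5 (-1.59), Slfn2 (-1.49) and Oasl2 (-1.07) made up 34.8% of the summed difference of -18.4 CP10k.

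Markers of other cells moved with the nonclassical monocyte result. Neutrophil markers summed to 107 CP10k in control and 35.2 in cells labelled depleted, with 6 of 6 lower. Classical monocyte markers summed to 40.2 and 22.6 (4 of 5 lower) and erythroid markers to 61.6 and 0.343 (4 of 4 lower). Nonclassical monocyte markers summed to 29.9 and 34.6, with 5 of 6 higher. Their part in the result was not tested. In classical monocytes the lists differed less: classical monocyte markers summed to 117 and 96.7, neutrophil markers to 12.2 and 10.7 and macrophage markers to 280 and 345.

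**Figure D2:**
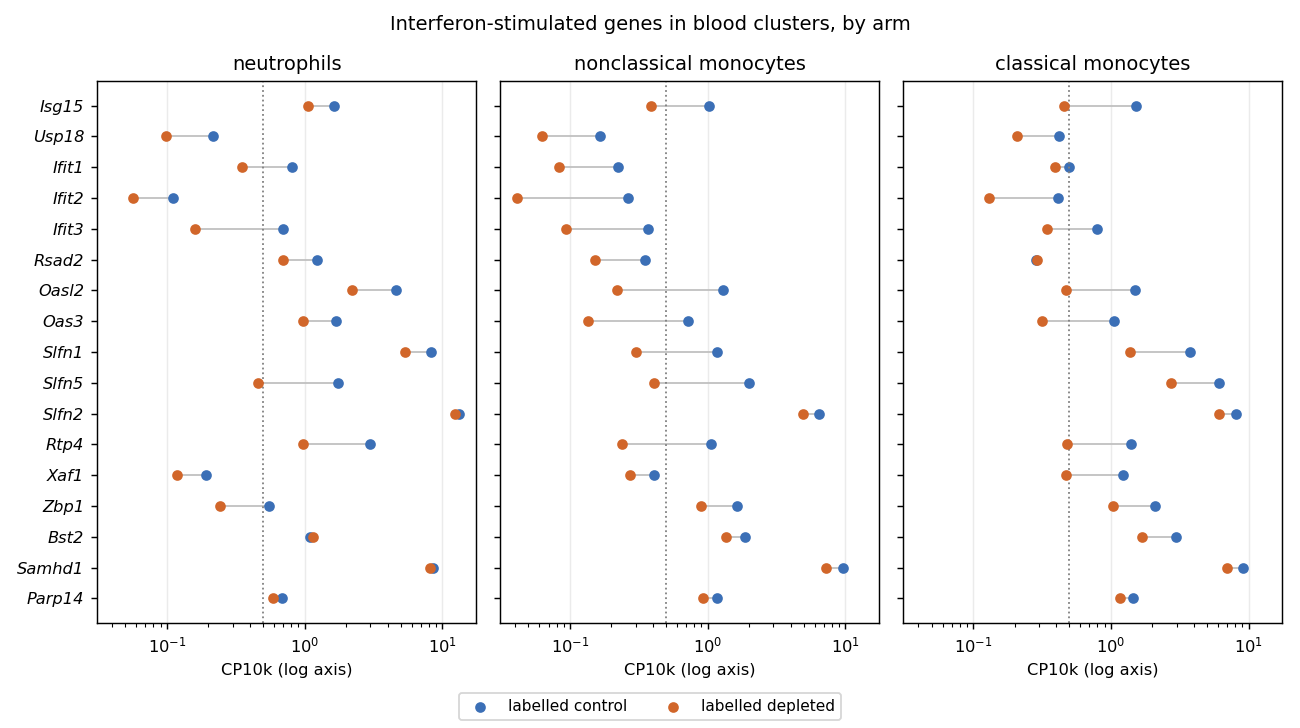
Level in CP10k (log axis) of 17 members in the samples labelled control and depleted, for blood neutrophils, nonclassical monocytes and classical monocytes; the dotted line marks 0.5 CP10k. Slfn5 lies at 1.76 and 0.456 in neutrophils, while Slfn2 lies at 13.2 and 12.3.

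By family, the same 3 blood populations can be set side by side. Of all genes measured in them, 44.3% were lower in neutrophils, 42.8% in nonclassical and 59.1% in classical monocytes. Members that passed in the control arm alone had to be lower, so the family counts are partly fixed by the filter. The OAS family had a median log2 ratio of -1.02 in neutrophils (3 of 3 measured members lower), -1.96 in nonclassical monocytes (2 of 2) and -1.47 in classical monocytes (3 of 3). In both monocyte clusters Oasl2 and Oas3 passed in the control arm alone. The Schlafen family had -0.68, -1.38 and -0.87, with 4 of 4 lower in each. In neutrophils the 3 measured IFIT genes, all of which passed in the control arm alone, had -1.47. The 3 restriction factors and nucleases (Bst2, Samhd1 and Isg20) had -0.07. In the monocyte clusters, measured restriction factors had -0.42 in nonclassical and -0.59 in classical cells. The p200 family had -0.99 in nonclassical (4 of 4 lower) and -0.66 in classical monocytes (6 of 6 lower). The ubiquitin ligases and PARP proteins had -0.38, -0.53 and -0.48. The RNA and DNA sensors, among them Ddx58 (RIG-I) and Ifih1 (MDA5), had -0.72, -0.60 and -0.93. Members with the promoter letters had a median of -0.73 in neutrophils (11 members) and those without -0.46 (7). The medians were -0.97 (10) and -0.91 (7) in nonclassical and -0.95 (15) and -0.93 (11) in classical monocytes.

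Of the 28 listed genes of the interferon pathway, 22 were present, and the alpha interferons Ifna1, Ifna2 and Ifna4 and Ifne were not measured here. In blood neutrophils 10 pathway genes were measured. Of these, 7 were lower, beside 44.3% of all genes, 2 higher and none past 2 fold lower, beside 0.561%. In nonclassical monocytes 7 of 13 were lower, beside 42.8%, and 1 past 2 fold, beside 1.54%. In classical monocytes 9 of 14 were lower, beside 59.1%, and 1 past 2 fold, beside 0.691%. The count of lower pathway genes in classical monocytes was thus near the share of all genes. Irf7, the factor that amplifies interferon production and is itself interferon-induced, was lower in all 3 populations. It was 1.17 and 0.565 CP10k in neutrophils (-0.93), 0.859 and 0.343 in nonclassical (-1.12) and 1.59 and 0.684 in classical monocytes (-1.11). Irf9, a DNA-binding factor of the pathway, was 0.966 and 0.581 (-0.65), 0.634 and 0.540 (-0.20), and 1.11 and 0.833 (-0.38). The receptor chain Ifnar1 was at close to the same level in both arms, at 0.810 and 0.809, 0.797 and 0.882, and 0.763 and 0.762. Ifnb1, the interferon itself, was at 0.0263 CP10k or less in every arm of the 3 populations.

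The other blood clusters gave smaller or less steady differences. In B cells (148 and 101 cells), 14 of 14 measured members were lower, beside 44.7% of all genes, with 1 past 2 fold lower, beside 0.541%. Of the 14, 9 passed in both arms and 5 in the control arm alone, so these 5 had to be lower. The median was -0.43, and 0.04 over all genes. Isg15 was 0.650 and 0.156 CP10k (-1.55) but rested on 46 and 8 corrected UMIs. Ifi35 was 0.508 and 0.214 (-0.95) and Slfn5 0.890 and 0.467 (-0.80), while Slfn8 (-0.09), Trim30a (-0.11) and Ifi203 (-0.13) differed least. Without shared barcodes 12 of 12 members were lower and none past 2 fold, at a median of -0.46.

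In blood T cells (103 and 103 cells), 20 of 28 measured members were lower, beside 48.8%, with none past 2 fold, beside 0.216%, and the median was -0.09 (0.01 over all genes). Of the 28, 25 passed in both arms and 3 in the control arm alone. Oasl2 was 0.682 and 0.295 CP10k (-0.98) and Isg15 3.26 and 2.21 (-0.54), while Herc6, an ISG15 ligase, was 0.534 and 0.747 (0.42). Of these cells 49.0% had a shared barcode, and without them 16 of 20 members were lower at a median of -0.33. In the microglia-like cluster (234 and 234 cells), 22 of 41 members were higher, beside 53.8%, and 19 lower, beside 46.2%, with a median of 0.02 (0.01 over all genes). Oas3 was 0.805 and 0.496 (-0.60), and Ifit3b 0.456 and 0.789 (0.68). Without shared barcodes 42 and 39 cells were left, of whose 43 measured members 35 were higher, at a median of 0.36. In the Krt8+ cluster (87 and 93 cells, 83.9% shared), 10 of 12 members were lower, beside 51.5%, and 3 past 2 fold, beside 0.514%, with a median of -0.66 (-0.01 over all genes). Of the 12, 7 passed in both arms and 5 in the control arm alone. Rsad2 was 2.56 and 0.753 (-1.64), Ifit1 1.40 and 0.615 (-1.07) and Bst2 20.4 and 23.6 (0.21). Only 21 and 8 cells of that cluster had no shared barcode, and in them the median was 1.05.

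**Figure D3:**
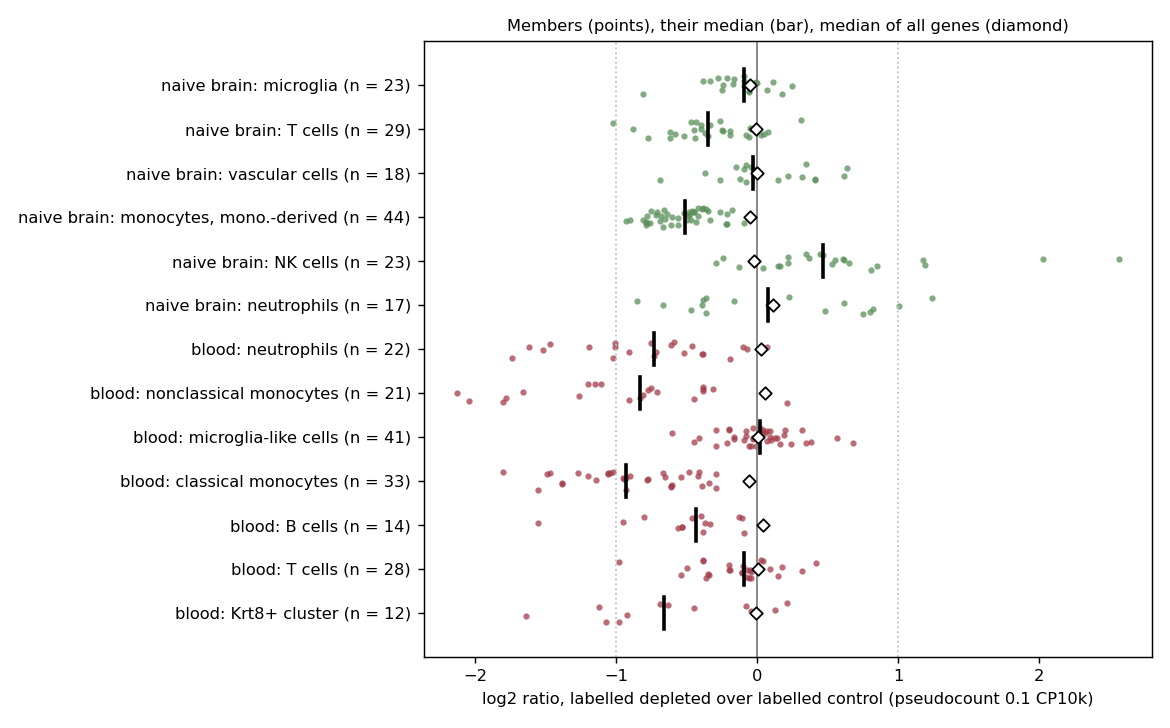
Log2 ratio, depleted over control, of each measured member (points) in the 13 clusters with at least 30 cells per arm, with the members' median (bar) and the median of all measured genes (diamond). The bars of blood neutrophils, nonclassical monocytes and classical monocytes lie at -0.73, -0.83 and -0.93, and that of naive NK cells at 0.47.

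In the naive brain, monocytes and monocyte-derived cells (111 and 172 cells) had 44 of 44 measured members lower in the sample labelled depleted, beside 57.4% of all 3103 measured genes. Of the 44, 40 passed in both arms. None was past 2 fold lower, beside 1.35% of all genes. The median log2 ratio was -0.51, and -0.05 over all genes, and the summed level was 113 CP10k in control and 76.0 in cells labelled depleted. The median cell held 86.2 and 44.4 CP10k. Isg15 (10.8 and 6.77), Bst2 (9.99 and 6.20), Rsad2 (5.14 and 2.70) and Slfn2 (8.59 and 6.24) made up 33.8% of the summed difference of -37.2 CP10k.

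The lowest ratios were those of Trim25, a ubiquitin ligase that activates RIG-I (1.38 and 0.677, -0.93), Rsad2 (-0.90), Oas3 (1.40 and 0.757, -0.81), Ifit1 (2.44 and 1.37, -0.79) and Lgals3bp (3.15 and 1.77, -0.79). Ifit2 was 1.89 and 1.06 (-0.78) and Ifit3 3.72 and 2.34 (-0.65). Ifi205 (1.55 and 1.44, -0.09), Parp9 (-0.18) and Ifi206 (-0.21) differed least. Of the pathway genes, 8 of 13 measured were lower, near the 57.4% of all genes, and Irf7 was 8.13 and 4.09 (-0.97). The differences were thus spread over most families, with the p200 family at a median of -0.35 and the IFIT family at -0.72.

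This result moved with the cells kept. Of this cluster 62.2% had a shared barcode. Without them (40 and 67 cells) 42 of 43 members were lower, 19 past 2 fold, at a median of -0.95, and Isg15 was 8.80 and 2.28. Without cells under 100 hashtag counts (45 and 168 cells), 23 of 43 were lower at a median of -0.02, with summed levels of 77.2 and 76.1. In that setting Rsad2 stood at 0.86 and Ifit3 at 0.67, both higher in cells labelled depleted, while Isg15 stood at -0.15 and Trim25 at -0.82. The hashtag counts that assign a cell to an arm had a median of 63.0 in control and 1132 in cells labelled depleted of the cluster. Neutrophil markers summed to 65.1 and 23.8 CP10k (6 of 6 lower), macrophage markers to 201 and 141 (6 of 6 lower), and median raw UMIs were 31224 and 21848. The part of each in the result was not tested.

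NK cells of the naive brain (36 and 110 cells) differed in the other direction. Of 23 measured members, 20 were higher in the sample labelled depleted, beside 48.1% of all genes, and 4 were past 2 fold higher, beside 1.45%. Of the 23, 15 passed in both arms, 7 in the depleted arm alone and 1 in the control arm alone. The median was 0.47 (-0.02 over all genes) and the summed level 24.8 and 35.3 CP10k. The median cells differed less, at 18.2 and 20.7 CP10k, and the upper quartiles were 30.9 and 29.1, while the highest 10% of cells began at 52.2 and 61.0. Ifit1 was 0.0610 and 0.856 (2.57) and Slfn5 0.122 and 0.805 (2.03), but the control values rested on 2 and 4 corrected UMIs. Isg15 was 0.701 and 1.73 (1.19; 23 and 172 UMIs), Ifit3 0.518 and 1.30 (1.18) and Slfn2 1.71 and 3.16 (0.85).

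The 3 measured members that were lower in these NK cells were Lgals3bp (1.49 and 1.21, -0.29), Zbp1 (0.884 and 0.735, -0.24) and Phf11b (0.549 and 0.493, -0.13). Irf7 was also lower, at 1.77 and 1.05 (-0.70), while 10 of 14 measured pathway genes were higher, beside 48.1% of all genes. Of the summed difference of 10.5 CP10k, 39.7% lay in Slfn2 (1.45), Isg15 (1.03), Bst2 (2.99 and 3.89, 0.90) and Ifit1 (0.79). Without shared barcodes 28 and 105 cells were left, under the minimum of 30, and 21 of 23 members were higher at a median of 0.70. NK markers summed to 42.5 and 34.4 CP10k (5 of 6 lower). Macrophage markers summed to 5.58 and 14.0 (5 of 6 higher), neutrophil markers to 2.90 and 8.05 (6 of 6 higher) and fibroblast markers to 0.0305 and 0.745. Their part in the result was not tested.

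In T cells of the naive brain (59 and 440 cells), 25 of 29 measured members were lower, beside 51.8%, and 1 was past 2 fold, beside 0.675%. Of the 29, 24 passed in both arms and 5 in the control arm alone. The median was -0.35 (-0.01 over all genes). Rsad2 was 0.788 and 0.339 CP10k (-1.02), Usp18 0.916 and 0.453 (-0.88) and Isg15 3.70 and 2.13 (-0.77), while Slfn2 was 3.28 and 4.09 (0.31). Leaving out the 13.6% of cells with a shared barcode ended the difference: 12 of 27 members were lower at a median of 0.01. Rsad2 was then 0.323 and 0.300 (-0.08), and Isg15 3.26 and 2.25 (-0.51). Without cells under 100 hashtag counts the median was 0.02.

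Microglia of the naive brain (134 and 686 cells) had 19 of 23 measured members lower, beside 60.3% of all genes, and none past 2 fold, beside 0.977%. The median was -0.09 (-0.05 over all genes), and the summed level 40.5 and 37.9 CP10k. Rsad2 was 0.994 and 0.523 (-0.81), Zbp1 0.542 and 0.409 (-0.33) and Ifit3 1.24 and 0.998 (-0.28). Parp14 was 1.02 and 1.24 (0.25) and Ifit2 0.708 and 0.816 (0.18). Of the summed difference of -2.66 CP10k, Rsad2 carried -0.47 and Bst2 (7.22 and 6.88) carried -0.34. Without shared barcodes the median was -0.10.

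Vascular cells (194 and 285 cells) had 10 of 18 members lower, beside 49.4%, and none past 2 fold, beside 1.64%, at a median of -0.03 (0.00 over all genes). Xaf1 was 0.595 and 0.330 CP10k (-0.69), while Ifi203 was 0.761 and 1.24 (0.64). Without shared barcodes 9 of 18 were lower at a median of -0.07. Neutrophils of the naive brain (49 and 56 cells) had 9 of 17 members higher, beside 60.0%, with 2 past 2 fold higher, beside 6.02%, none past 2 fold lower, beside 1.62%, and a median of 0.08 (0.11 over all genes). The 2 were Bst2 (1.16 and 2.89, 1.24) and Zbp1 (0.223 and 0.551, 1.01), while Trim30a was 2.03 and 1.08 (-0.85). Of the 17, 12 passed in both arms and 5 in the depleted arm alone. Of these neutrophils 65.7% had a shared barcode, and the 18 and 18 cells without one had a median of 0.89. Nonclassical monocytes, the Krt8+ cluster and endothelial cells of the naive brain had under 30 cells in an arm and were not compared.

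**Figure D4:**
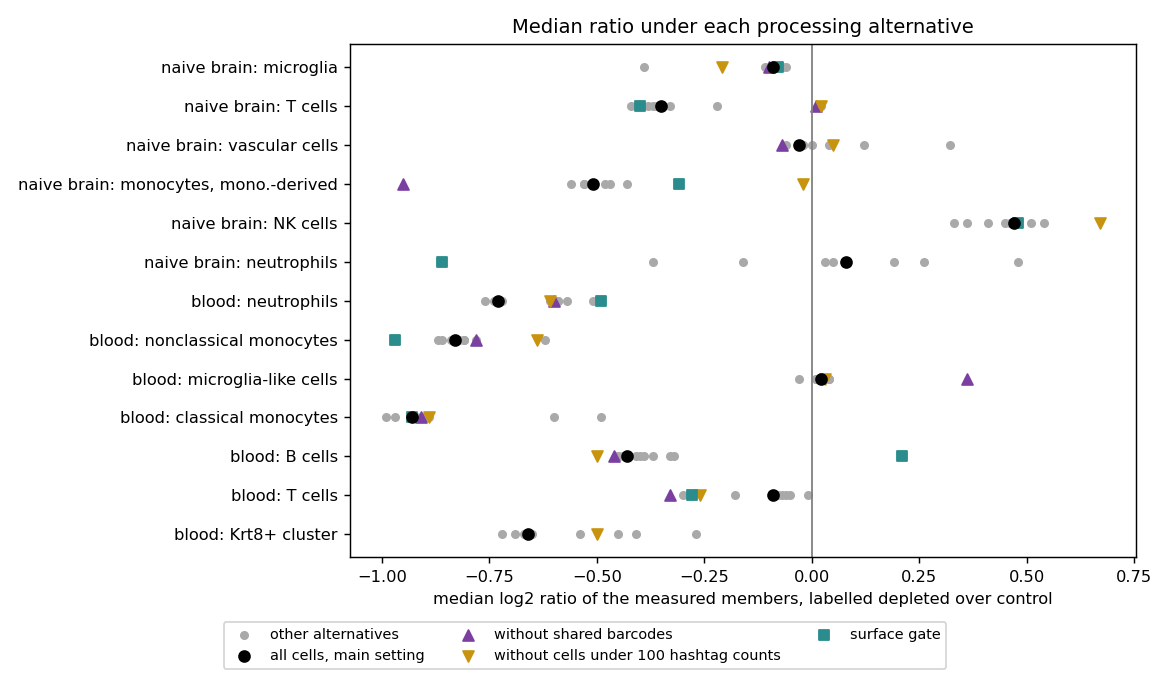
Median log2 ratio of the measured members, depleted over control, in each cluster under every processing alternative that could be run. The medians of blood neutrophils stay between -0.76 and -0.49, those of classical monocytes between -0.99 and -0.49, while naive monocytes range from -0.95 to -0.02.

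The authors' surface gates, drawn on antibody tags, cut the same cells in another way. As in the clusters, a member that passed in the control arm alone had to be lower, and in the depleted arm alone higher. How many members of a gate did so is not given, so part of each count is fixed by the filter. Ifit3 in the blood Ly6CLow gate and Oasl2 in the blood Ly6CHigh gate were such members. In the blood Ly6CLow gate (190 and 503 cells), 30 of 30 measured members were lower, beside 51.6%, and 14 past 2 fold, beside 2.47%, at a median of -0.97. Ifit3 was 0.665 and 0.118 CP10k (-1.81), Slfn5 3.26 and 0.997 (-1.61) and Isg15 1.25 and 0.516 (-1.14). The make-up of the gate differed: nonclassical monocytes were 32.1% of its control and 61.8% of its depleted cells. In the blood Ly6CHigh gate (75 and 68 cells), 33 of 33 were lower, beside 51.8%, and 14 past 2 fold, beside 1.51%, at a median of -0.93, and Oasl2 was 1.50 and 0.199 (-2.42). In the blood Ly6C+Ly6G+ gate (509 and 386 cells), of which 90.8% and 89.4% lay in the neutrophil cluster, 19 of 21 were lower, beside 46.6%, and 5 past 2 fold, beside 0.779%, at a median of -0.49. Slfn5 was 1.69 and 0.448 (-1.71) there. Without shared barcodes the 3 medians were -1.02, -0.84 and -0.63.

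Other gates differed between the tissues. In the NK1.1+ gate, 23 of 26 members were higher in the naive brain sample labelled depleted, beside 46.2%, with 5 past 2 fold higher, beside 2.19%, at a median of 0.48. In blood 40 of 41 were lower, beside 38.6%, with 7 past 2 fold, beside 1.89%, at a median of -0.55. Isg15 was 1.06 and 2.23 CP10k in the brain gate and 10.7 and 5.08 in the blood gate. The brain gate was mostly NK cells (73.5% and 63.6%), with a median of 0.52 in the 27 and 98 cells without a shared barcode. The blood gate was 54.5% and 50.0% microglia-like cells, and 83.0% and 88.2% of its cells had a shared barcode. In the 15 and 13 without one the median was 0.22, and also 0.22 over all genes.

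In the naive Ly6CLow gate (153 and 120 cells), 13 of 20 members were higher, beside 42.4%, at a median of 0.34. Isg15 was 0.794 and 1.84 CP10k (1.11) and Bst2 3.49 and 6.92 (0.97), while Slfn2 was 3.82 and 2.00 (-0.90). Its control cells were 68.6% nonclassical monocytes, while its depleted cells were 39.2% from the monocyte cluster and 5.83% nonclassical. Without shared barcodes the median was 0.10. In the B220+ gate, 28 of 36 members were lower in the naive brain, beside 46.8%, at a median of -0.53, and 20 of 28 were higher in blood, beside 53.8%, at a median of 0.21. Rsad2 was 0.496 and 1.58 (1.50) in the blood gate and Isg15 5.02 and 2.63 (-0.91) in the brain gate. The make-up of the naive B220+ gate differed between the arms. Its control cells were 26.8% from the monocyte cluster, 12.2% from T cells and 4.88% from the Krt8+ cluster. Among its depleted cells these shares were 10.3%, 30.9% and 19.1%. Without shared barcodes the medians were -0.29 (14 and 40 cells) and -0.33. Without cells under 100 hashtag counts the naive gate (21 and 57 cells) had 16 members lower and 16 higher, at a median of 0.00. The naive Ly6CHigh gate also turned with these cells, from a median of -0.31 to 0.38.

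In the naive Ly6C+Ly6G+ gate (59 and 55 cells), 35 of 36 members were lower, beside 40.9%, and 13 past 2 fold, beside 4.41%, at a median of -0.86. Without shared barcodes (17 and 14 cells) the median was -0.91, with 23 of 27 members lower. Without cells under 100 hashtag counts (26 and 49 cells) 19 of 27 were lower, 5 past 2 fold lower and 3 past 2 fold higher, at a median of -0.32. In all cells Isg15 was 6.29 and 1.70 CP10k (-1.83), Rsad2 3.19 and 0.833 (-1.82) and Ifit3 2.36 and 0.50 (-2.03). Of its control cells 23.7% lay in the monocyte cluster and 54.2% in the neutrophil cluster, against 12.7% and 49.1% of its depleted cells. In the blood CD8+ gate (40 and 40 cells), 33 of 39 were lower, beside 61.1%, and 11 past 2 fold, beside 4.90%, at a median of -0.65. In 9 and 19 cells without a shared barcode it was -1.19.

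In the brain with metastases, 5933 cells with a median of 13647 corrected UMIs were grouped into 30 clusters by their expression, 29 of them with 30 or more cells. Clusters were named from marker genes, and 22 members were among the genes used to cluster. The module peaked in a macrophage-like cluster of 493 cells, 8.31% of all, with Cxcl9, Ly6i and Ccl8 as leading genes. It also carried 4 of the classical monocyte markers. The summed level of the 47 members was 174 CP10k there, beside a median of 38.3 over the clusters. Its median cell held 137. In 10% of its cells the sum was below 56.8, and in 10% above 338.

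That cluster had the highest level of 36 of 47 members. Isg15 stood at 20.7 CP10k and next at 7.85, in a cluster led by Ttr and Enpp2. Ifit2 stood at 3.76 and next at 1.25 in a migratory dendritic cell-like cluster that was led by Cd209a and Ccr7 and also carried 3 conventional dendritic cell markers, Ifi211 at 4.23 and next at 1.68, Zbp1 at 5.38 and next at 2.42, and Rsad2 at 8.52 and next at 3.69 in endothelial-like cells. Xaf1 was hardly higher than elsewhere, at 2.13 against 1.91 in another endothelial-like cluster. The other members peaked elsewhere. The unnamed cluster led by Ttr and Enpp2 (87 cells) had the highest Ifit1 (4.42 against 3.80), Ifit3 (8.14 against 6.66), Ifit3b (3.28 against 1.53) and Ifi44. Neutrophil-like cells had the highest Oasl2 (2.69 against 2.53) and Slfn1 (4.35 against 3.46). Classical monocyte-like cells had the highest Slfn2 (12.3 against 11.4) and Trim25, a T cell-like cluster led by Cd8b1 the highest Isg20 (2.78 against 2.66) and microglia-like cells the highest Lgals3bp (4.70). Bst2 was highest in a tumour-like cluster, at 17.4, among clusters of 30 or more cells, while 27 plasmacytoid dendritic cell-like cells, for which it is a defining marker, had 52.5.

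The same members were also counted cell by cell. The macrophage-like cluster was picked by its summed level of these members, so a high count in its cells is no separate result. After each cell was thinned to 3000 corrected UMIs, 906 of 5933 cells (15.3%, exact 95% interval 14.4 to 16.2%) had 15 or more members detected. The interval covers counting error only. Of these cells 349, or 38.5% (35.3 to 41.8%), were in the macrophage-like cluster, where 70.8% (66.6 to 74.8%) of cells reached 15, and 98.8% without thinning. The threshold cuts a continuous range: 114 cells had 14 members and 95 had 15. Of microglia-like cells 5.35% reached 15 in the larger cluster (430 cells) and 27.6% in a smaller one led by Cxcl13 (116 cells, 50.0% of them with a shared barcode). Of cells in a T cell-like cluster led by Cd8b1 23.7% reached it, of migratory dendritic cell-like cells 28.8%, of an unnamed cluster led by Xcl1 (180 cells, with T cell and macrophage markers) 38.9% and of mural-like cells 1.52%. The median depths of these clusters lay between 13004 and 14758 corrected UMIs.

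Which cells the leading cluster holds depends on the clustering. At a finer resolution the leading cluster was classical monocyte-like, with 184 cells, a summed level of 202 CP10k and the highest level of 30 members. Without the members among the clustering genes it was also classical monocyte-like (369 cells, 145 CP10k, 23 members), and without shared barcodes likewise (317 cells, 147 CP10k, 22 members). Macrophage-like and classical monocyte-like clusters as a whole held 45.7% (42.4 to 49.0%) of the cells with 15 or more members and 13.9% of all cells. Most of these, 349 cells, lay in the leading cluster. In the other macrophage-like cluster (163 cells, led by Ctsk) 11.7% of cells reached 15, with a summed level of 49.9 CP10k. In the classical monocyte-like cluster (170 cells) 27.1% did, so the trait was not shared evenly by these cells.

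**Figure D5:**
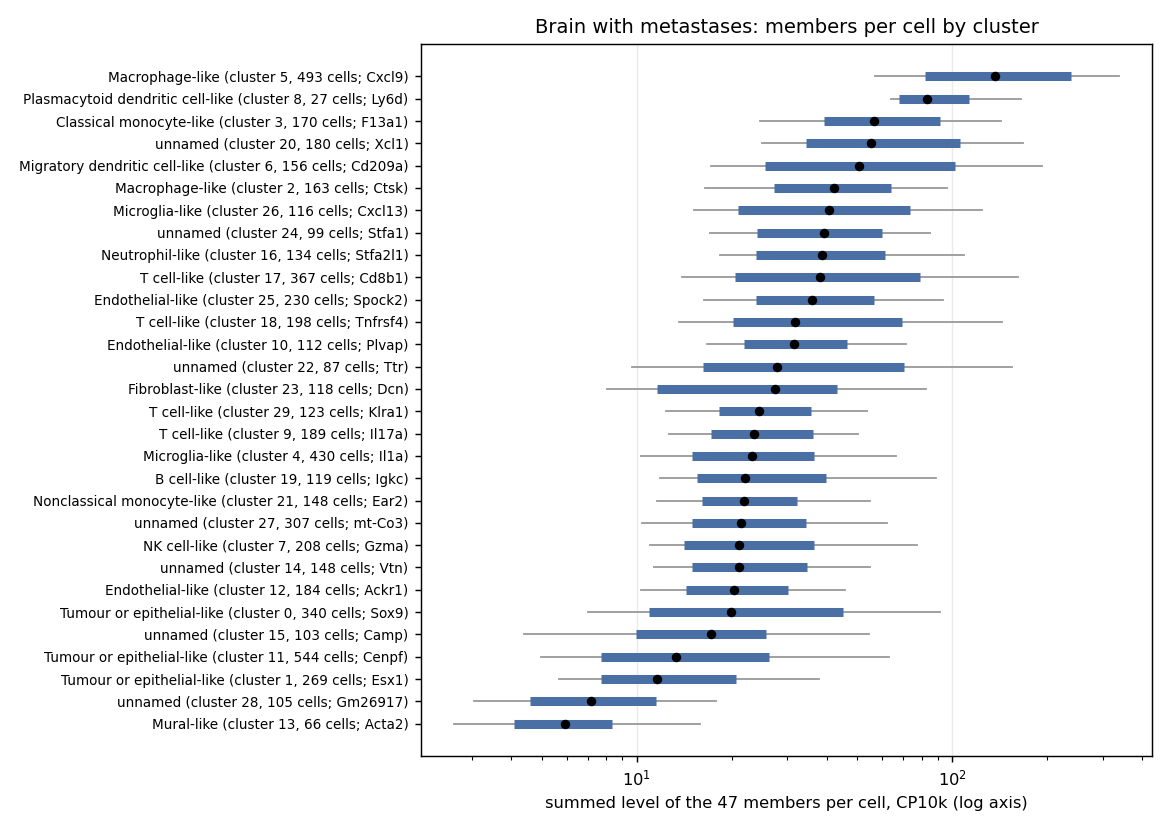
Summed level of the 47 members per cell in CP10k (log axis) for the 30 clusters of the brain with metastases: dot, median; thick line, middle 50% of cells; thin line, middle 80%. The macrophage-like cluster led by Cxcl9 has the highest median, 137, and the mural-like cluster a median of 5.91.

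Within the 493 cells of the macrophage-like cluster, members were not equally tied to the rest of the module. The correlation of a member with the sum of the others over cells, given as a description since the cells share 1 library and its depth, was 0.84 for Isg15, 0.82 for Ifit3, 0.80 for Ifi204 and Ifi209 and 0.79 for Rsad2. It was 0.45 for Bst2, 0.33 for Samhd1 and Oas1g, 0.30 for Ifi44 and 0.26 for Lgals3bp. Oas1g (0.469 CP10k, a UMI in 41.0% of cells) and Ifi44 (0.396, 24.5%) were sparse there, and the part of this in their correlations was not tested. Bst2 and Samhd1 had a UMI in 99.8% of cells and Lgals3bp in 91.5%. Isg15 had a UMI in 97.2% of these cells and Rsad2 in 66.5%, while in the larger microglia-like cluster Isg15 had one in 44.4%. Of the pathway genes, this cluster stood at 10.9 CP10k for Irf7, 1.02 for Ifnar1, 1.43 for Ifnar2 and 0.0870 for Ifnb1. The T cell-like cluster led by Cd8b1 stood at 2.38 for Ifng, the type II interferon that many of these genes also answer to.

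The tumour-like clusters differed from each other by member. Their summed levels were 38.3, 25.8 and 16.8 CP10k. Bst2 stood at 17.4, 14.6 and 13, Isg15 at 4.10, 2.45 and 0.985, Rsad2 at 2.26, 0.723 and 0.0343, and Ifit3 at 0.163, 0.0955 and 0.00792. Bst2 was thus a large part of each sum, while Rsad2 varied most of these members. In the clusters with the highest and the lowest sum, Ifnar1 stood at 0.0375 and 0.00264 CP10k.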

How the data were processed

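Per the submitters' processing notes, reads were processed with Cell Ranger 3.1 and Seurat 3.1.1 on mm10. The authors deposited, per tissue, a gene-by-cell matrix on a natural log scale. Undoing the log (exp(value) - 1) gave whole numbers throughout (tolerance 1e-06), read here as UMIs that the authors corrected for depth separately in each matrix. They are not raw counts, so no count model, error or interval was put on the level of a gene or on its arm ratio. The thinning in the brain with metastases did draw from them as if they were counts. The intervals given there are for shares of cells. Raw UMI and hashtag counts per cell were taken from the annotation the authors deposited, of which 64 columns were not used.

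For each annotated cluster or gate and arm, corrected UMIs of all its cells were added up and scaled to 10000 (CP10k). A log2 ratio adds 0.1 CP10k to both arms. A gene was measured at 0.5 CP10k in at least 1 arm, and a comparison needed 30 cells in each. A ratio past 2 fold is a description. There is 1 sample per arm and tissue, so nothing was tested. No doublet caller was run, and cells over 3 times the median raw UMIs were left out as an alternative.

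The brain with metastases was clustered with scanpy 1.11.5, scikit-learn 1.9.0 and igraph 0.11.9 (2000 variable genes, 30 components, 20 neighbours, Leiden resolution 1.0). Clusters were named from at least 3 detected markers. Cells were thinned to 3000 corrected UMIs, and none was too shallow. Shares have exact Clopper-Pearson 95% intervals, which cover counting error only. Promoters are RefSeq's (GRCm38.p6), matched by symbol. The computations used Python 3.11.15, numpy 2.4.6, scipy 1.17.1, pandas 2.3.3 and matplotlib 3.10.9. Only the log2 ratio of pooled cells was tested on simulated data, made from blood clusters.

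Named genes were the 5 lowest and 3 highest ratios of each comparison, 12 members chosen by name, the highest cluster of each member, and the pathway genes. Members were named beyond this in small counts, for their part in a summed difference and in families, after their values were seen. The members, lists and tests were chosen with earlier results of these data known. Alternatives changed the pseudocount, the level needed, the cells kept, the scaling, the grouping by gate and the clustering. The values of 1 pathway gene are not reported here.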

Additional observations from a re-analysis of the deposited data

Results flagged for a closer look

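Depleted over control, the measured members had a median log2 ratio of opposite sign in naive brain and blood in 3 surface gates and in 1 cell type with a cluster in both tissues. The difference between the tissues was not tested in any of them, since each rests on 1 sample per arm and the matrices were corrected separately.

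In the NK1.1+ gate the median was 0.48 in the naive brain and -0.55 in blood. In the Ly6CLow gate it was 0.34 and -0.97, and in the B220+ gate -0.53 and 0.21. In the neutrophil clusters it was 0.08 and -0.73. Without shared barcodes the blood NK1.1+ gate kept 15 and 13 cells with a median of 0.22, and the blood B220+ gate had a median of -0.33, so neither differed in sign from its naive counterpart there. All genes of that NK1.1+ gate had a median of 0.22 as well, so no direction of the members is read from it. Without cells under 100 hashtag counts the naive B220+ gate (21 and 57 cells) had a median of 0.00, which has no sign. The Ly6CLow gate kept opposite signs, at 0.10 and -1.02, as did the neutrophil clusters, at 0.89 in 18 and 18 naive cells and -0.60 in blood. In all cells, though, the naive neutrophil median of 0.08 lay below the 0.11 of all genes there. The Ly6C+Ly6G+ gate had the same sign in both tissues, at -0.86 in the naive brain and -0.49 in blood.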

How the results depend on the processing

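Over 32 results and 321 alternatives, 246 values stayed within set limits, 62 moved and 13 changed sign. For a median the limit was a 95% interval of the median over the members, which are not independent of each other. For a count it was a fixed ratio to the main count, and for a share of cells the exact 95% interval. These limits are tolerances and do not measure the spread between mice. The medians of blood neutrophils (-0.76 to -0.49), nonclassical monocytes (-0.97 to -0.62) and classical monocytes (-0.99 to -0.49) kept their sign under all 13 alternatives run for each, and naive NK cells (0.33 to 0.67) under all 10. The causes of the changes below were not tested.

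Sign changes of the median log2 ratio were these. Naive T cells (-0.35) had 0.01 without shared barcodes and 0.02 without cells under 100 hashtag counts or without both. Naive vascular cells (-0.03) had 0.04 and 0.32 with genes measured at 0.2 and 1 CP10k, 0.12 without cells over 3 times the median UMIs and 0.05 without low hashtags. Naive neutrophils (0.08) had -0.37 at 1 CP10k, -0.86 by gate and -0.16 with the filter on the mean of the arms. Blood microglia-like cells (0.02) had -0.03 at 1 CP10k, and blood B cells (-0.43) had 0.21 by gate in either annotation. Medians that moved were naive microglia (-0.09) to -0.39 without shared barcodes and low hashtags. Naive monocytes (-0.51) moved to -0.43 with a pseudocount of 0.5, -0.95 without shared barcodes, -0.02 without low hashtags and -0.31 by gate. Naive NK cells (0.47) moved to 0.67 without low hashtags and blood microglia-like cells to 0.36 without shared barcodes. Classical monocytes (-0.93) moved to -0.60 with a pseudocount of 0.5 and -0.49 by the earlier gates. Blood T cells (-0.09) moved to -0.33 without shared barcodes, -0.26 without low hashtags, -0.30 without both, -0.01 unscaled and -0.28 by either gate.

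Counts past 2 fold lower moved as follows. Blood neutrophils (8) had 2 with a pseudocount of 0.5, 3 at 1 CP10k, 5 by gate or by the filter on the mean of the arms, and 4 by the earlier gates. Nonclassical monocytes (9) had 4 with a pseudocount of 0.5, 15 at 0.2 CP10k and 14 by gate. Classical monocytes (13) had 4 with a pseudocount of 0.5 and 5 by the earlier gates. B cells (1) had 2 with a pseudocount of 0.05, 4 at 0.2 CP10k, and 0 with a pseudocount of 0.5, at 1 CP10k, by gates, by the mean filter and without shared or very deep cells. Blood T cells (0) had 1 with a pseudocount of 0.05 or without low hashtags, and the blood Krt8+ cluster (3) had 5 and 1 with pseudocounts of 0.05 and 0.5. Naive microglia (0) had 2 without shared barcodes, 1 without low hashtags and 3 without both, naive T cells (1) had 0 in 5 alternatives, vascular cells (0) had 2 without deep cells and 1 without shared barcodes and low hashtags, naive monocytes (0) had 19 without shared barcodes and naive neutrophils (0) had 13 by gate.

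In the brain with metastases, the leading cluster's share of cells with 15 or more members (38.5%) was 46.9% and 15.1% at resolutions 0.5 and 2.0, 21.2% clustered without the members, 23.5% without shared barcodes, 51.0% thinned to 1500 and 18.6% not thinned. Its members at their highest (36) were 23 without the members as clustering genes and 22 without shared barcodes. The share in macrophage-like or classical monocyte-like clusters (45.7%) was 51.1% without shared barcodes. Of all cells, 15.3% reached 15 members, 6.71% thinned to 1500 and 44.2% not thinned.

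Not run, with under 30 cells in an arm, were naive NK cells and naive neutrophils and the blood Krt8+ cluster without shared barcodes, naive neutrophils without low hashtags, and naive monocytes, NK cells and neutrophils, blood microglia-like cells and the Krt8+ cluster without both. No paired analysis was possible because each arm and tissue has 1 sample. The pooled library, the low hashtag counts of some control clusters and members near 0.5 CP10k limit what the ratios can show.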

Other observations

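In the brain with metastases, the cluster led by Ttr and Enpp2, genes of choroid plexus epithelium, held the highest levels of 3 of the 4 IFIT genes among clusters of 30 or more cells, although its summed level was 61.0 CP10k against 174 in the macrophage-like cluster. Of its 87 cells, 10.3% had 15 or more members after thinning, and 26.4% had a shared barcode. Its median cell held 27.8 CP10k of the module.

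Plasmacytoid dendritic cell-like cells (27 cells) had a summed level of 99.8 CP10k, of which Bst2 made up 52.5, while Ifit3 stood at 0.165 and Rsad2 at 0.193. Their Irf7 stood at 5.51 and Ifnar1 at 3.75.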
